A study of Zea mays with 4 samples.

Results

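The predicted miRNAs of 24 nt described here are the entries of the deposited miRNA table that the authors predicted from hairpin structures of maize (Zea mays L.) and whose mature sequence is 24 nt long. They number 42 of the 270 entries in the table, the others being 67 predicted miRNAs of 20 to 23 nt and 161 known miRNAs with 72 distinct sequences. The 42 come from 28 hairpins, and each is called by the number of its hairpin and its arm as in the table, so that 53-3p is the 3p arm of hairpin 53. All 4 libraries came from the inbred line B73, with 1 library per tissue and no genetic or chemical treatment. Pollinated silks (PS) were taken 30 min after excess pollen was put on them, mature silks (MS) were unpollinated silks about 5 cm out of the husk, germinated pollen (GP) had been in liquid medium for 30 min with over 90% of grains germinated, and mature pollen (MP) was shaken from tassels. PS still held the applied pollen and its tubes, so it was a mixture of both tissues. Clean reads numbered 5205129 in PS, 5775303 in MS, 10575042 in GP and 3638941 in MP. The level of a miRNA is given in TPM, its reads scaled to the clean reads of its library (reads per 1000000), and 1 read equaled 0.192 TPM in PS, 0.173 TPM in MS, 0.0946 TPM in GP and 0.275 TPM in MP. A count of 0 allows a level of up to 3 reads, which is 0.576 TPM in PS, 0.519 in MS, 0.284 in GP and 0.824 in MP. With 1 library per tissue there was no replicate check in the sequencing. The study also measured its differentially expressed miRNAs by stem-loop real-time RT-PCR and describes similar patterns, which were not examined here. Tests compare libraries, not conditions, and intervals (95%) cover counting error only, since reads amplified by PCR are not independent molecules.

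In plants most miRNAs are cut from hairpin transcripts by DICER-LIKE 1 and direct the cleavage or repression of mRNAs. Small RNAs of the 24-nt length are mostly made by DICER-LIKE 3 from double-stranded RNA of transposons and other repeats. They are bound by ARGONAUTE 4 and its relatives, which in Arabidopsis favor an A as the first base, and they direct DNA methylation at loci of matching sequence. Hairpins can also be cut to this length, and such long miRNAs have been described in rice.

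The sequences that carry the largest shared feature are given first. A run of 12 nt, AGCACCGUUGGA, was present in 12 of the 42 members (28.6%), 7 of them as written and 5 as its reverse complement UCCAACGGUGCU. Both strands were searched. Among the other 67 predicted miRNAs it was found in 1 (1.49%), 25c-5p-1 of 23 nt from a hairpin that also gives 24-nt members, and among the 161 known miRNAs in 0. The 12 members came from 8 hairpins at 14 loci of the authors' list. Their sequences follow, 5′ to 3′, with the run or its reverse complement in capitals, since the place of the run shifts from member to member.
15-3p: AGCACCGUUGGAuauggagggugu
60-3p: acAGCACCGUUGGAuguggagggu
22-3p: acacAGCACCGUUGGAuguggagg
25a-3p: gauauAGCACCGUUGGAuguggag
25b-3p: gacacAGCACCGUUGGAuguggag
25c-3p: gacgcAGCACCGUUGGAuguggag
5-3p: aaccccugacgcAGCACCGUUGGA
5-5p: aUCCAACGGUGCUgugucaggggg
13-5p-2: aUCCAACGGUGCUguguuaggggg
25a-5p: acaUCCAACGGUGCUgcguuaggg
25c-5p-2: acaUCCAACGGUGCUgugucaggg
22-5p: acauccuccacaUCCAACGGUGCU

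The members were collected by length and prediction alone, and the run was found by comparing their sequences with each other. In 15-3p it begins at the first base, in 60-3p at base 3, in 22-3p at base 5 and in the 3p arms of hairpins 25a, 25b and 25c at base 6. The same stretch was therefore present at different offsets from the 5′ end. Several of these members overlap almost in full: 22-3p and 25b-3p share 23 nt at an offset of 1 nt, and 22-3p and 60-3p share 22 nt at an offset of 2 nt. Because length variants of up to 2 bp were added to each count by the authors, 3 pairs with 5 members can share reads, and values of these members are uncertain. The reads of 22-3p (12 in PS, 6 in MS) and 25b-3p (11 in PS, 6 in MS) were close to each other in both silk libraries. When members were linked by any shared run of at least 12 nt on either strand, the largest group had 14 members, the 12 above with 13-3p and 13-5p-1.

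**Figure D1:**
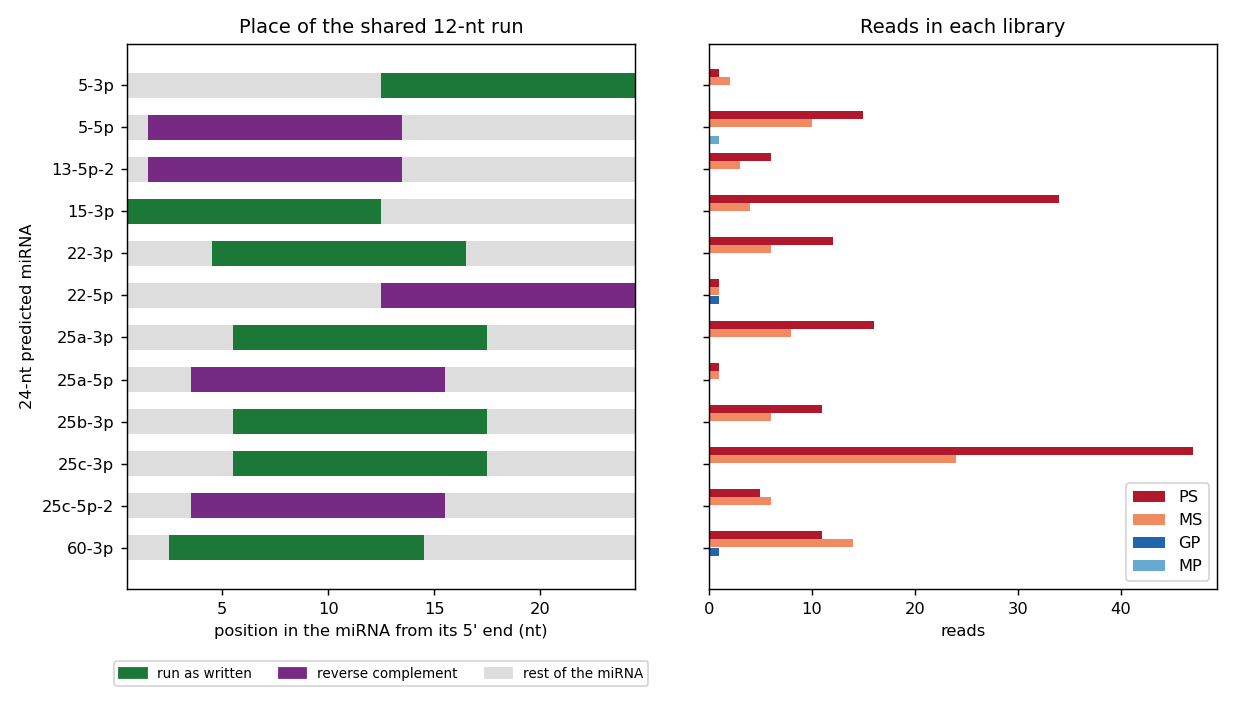
Place of the shared 12-nt run in 12 members (left, position in nt from the 5′ end, with green for the run as written and purple for its reverse complement) and their reads in PS, MS, GP and MP (right). The run starts between base 1 and base 13, and the longest bars are the PS reads of 25c-3p (47) and 15-3p (34), with at most 1 read in a pollen library for any of the 12.

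The remaining members with at least 10 reads over the 4 libraries together are given with the seed, bases 2 to 8, in capitals. First come those with more reads in the silk libraries.
53-3p: aCCCGUGCugcaagcuuuaugguu
37-3p: aUUGAUCCuguagcaacguacggu
38a-3p: aUUCCCCCucuggauugguguaac
34-3p: aUCUCCGAcggccucguacagagc
4-5p: aGGUCGAUacauuaaguuguuaca
9-3p: aAUCUAACggaucagaugguuugc
9-5p: aAACCAUCugauccguuagaucgu
32-5p: aAGGGAACguaucuggugcucaaa
20-5p: gUUCGUUUuggaguggauugaggg
58-3p: aAUUGCUGgugucguugaaugcaa
61-5p: uGGGUACUcuaguauugaaguggu
13-3p: aAAACCCCcugacgcagcaccguu
13-5p-1: aACGGUGCugugucaggggguuuu
45-3p: gUGGAUGGugugaucuggauugau
24-5p: cGCUAGUUugguauuauggagcac
28-3p: aAUCCCCUccaauccucucgggau

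The 4 members with more reads in the pollen libraries, which make up most of the pollen signal below, were the following, again with the seed in capitals.
46-3p: aAUAUUUGaucuguuagauggucu
8-3p: uUGGGAAAauaggaaucacuuggg
41-5p: aCGAACAUggugaaagcgcguggu
52-5p: uCUCCGACgaucucuacuucugcu
The name 41-5p is uncertain. A list of differentially expressed miRNAs in the study prints another, shorter sequence beside it, which the deposited table gives to 44-5p. The fold-change in that list, 1.836 as a log2 ratio of GP to MP, is that of the 24-nt row, while 44-5p was at 0.291. The study's RT-PCR primer of this name has the shorter sequence too, so that RT-PCR was not designed on the 24-nt sequence. The 24-nt sequence above and the reads given for 41-5p below are those of the row of that name in the deposited table, where 44-5p has 21 nt and 76 reads in PS, 81 in MS, 32 in GP and 9 in MP.

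The 42 members had 40 distinct seeds, and none of these seeds occurred in a known miRNA. The seed CAUCCAA was shared by 25a-5p and 25c-5p-2 and by 1 shorter predicted miRNA, and UCCAACG by 5-5p and 13-5p-2. Both of these seeds overlap the shared run. An A was the first base of 29 of the 42 members (69.0%). It began 42.1% of the 38 predicted miRNAs of 20 to 21 nt, 44.8% of the 29 of 22 to 23 nt and 8.33% of the distinct known sequences, of which 75.0% began with U. By reads, an A began 80.8% of the members' reads in PS, 85.1% in MS, 64.5% in GP and 28.0% in MP. The low share in MP rested on 2 members that begin with U, 8-3p and 52-5p. GC content of the members ranged between 12.5% and 66.7%, with a median of 50%.

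Most 24-nt members were detected in the silk libraries and few in the pollen libraries. The study asked for over 5 reads in a library to accept a predicted miRNA. A member that met this minimum only in a silk library was thus detected in silk by selection. For such members, detection in silk and a silk level above the pollen level are not independent of that minimum. At least 1 read was present for 36 of the 42 in PS, 38 in MS, 13 in GP and 6 in MP, although GP was the deepest library. The 38 predicted miRNAs of 20 to 21 nt ran the other way, with 15 detected in PS, 26 in MS, 34 in GP and 31 in MP. For the 29 of 22 to 23 nt the numbers were 15 in PS, 24 in MS, 24 in GP and 21 in MP. Of the 42, 28 had reads in silk libraries only, 1 (8-5p, 2 reads in GP) in a pollen library only and 3 in all 4 libraries. Both silk levels were above both pollen levels for 31 members, against 58.9% of all entries and 23.9% of the 67 shorter predicted miRNAs. Both pollen levels were above both silk levels for 4 members, against 17.4% of all entries and 53.7% of the shorter predicted ones. The libraries overlapped for the other 7.

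Summed over the 42 members, 600 reads were counted in PS, 585 in MS, 318 in GP and 82 in MP. The summed level was 115 TPM in PS (interval 106 to 125), 101 TPM in MS (93.3 to 110), 30.1 TPM in GP (26.9 to 33.6) and 22.5 TPM in MP (17.9 to 28.0). Predicted miRNAs of 20 to 21 nt summed to 51.7 TPM in PS, 54.4 in MS, 189 in GP and 156 in MP. Those of 22 to 23 nt summed to 351 TPM in PS, 273 in MS, 121 in GP and 79.4 in MP. Within a library, where scaling does not enter, the 24-nt members held 69.0% of the reads of 24-nt and 20-to-21-nt predicted miRNAs in PS (interval 65.9 to 72.1) and 65.1% in MS (61.9 to 68.2). They held 13.7% in GP (12.4 to 15.2) and 12.7% in MP (10.2 to 15.5). Beside the predicted miRNAs of 22 to 23 nt, the 24-nt share was 24.7% in PS, 27.1% in MS, 19.9% in GP and 22.1% in MP. That share rested on 11-3p, a predicted miRNA with 1460 reads in PS, 1112 in MS, 7 in GP and 1 in MP. Without it the miRNAs of 22 to 23 nt summed to 70.9 TPM in PS, 80.5 in MS, 120.2 in GP and 79.1 in MP, and the 24-nt share beside them was 61.9% in PS (58.8 to 65.0), 55.7% in MS (52.6 to 58.7), 20% in GP (18.1 to 22.1) and 22.2% in MP (18.0 to 26.7).

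The summed level of the members in MS was 4.50 times that in MP (interval 3.56 to 5.74), and that in PS was 3.83 times that in GP (3.34 to 4.41). Single members moved both. MS against MP the ratio was 2.86 without 53-3p (2.22 to 3.72) and 8.15 without 8-3p (6.01 to 11.3), and PS against GP it was 3.08 without 53-3p and 5.65 without 46-3p. These ratios are per clean read. Known miRNAs were 5.90 times higher in MS than in MP and 8.63 times higher in PS than in GP on the same scale, and scaled to the reads of known miRNAs the members' ratios were 0.761 for MS against MP and 0.444 for PS against GP. The direction of the silk-to-pollen difference thus held per clean read and turned round per read of known miRNA. PS against MS the summed ratio was 1.14 (1.01 to 1.28), and without 53-3p, the most abundant member, it was 1.54 (1.33 to 1.77). GP against MP it was 1.33 (1.04 to 1.72), and it was 0.982 without 46-3p (0.751 to 1.29), 1.09 without 41-5p (0.838 to 1.44) and 1.97 without 8-3p (1.43 to 2.77), so that its direction rested on 46-3p. Scaling by TMM, the trimmed mean of log ratios over known miRNAs, brought the PS to MS ratio to 0.959 and the GP to MP ratio to 0.946.

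**Figure D2:**
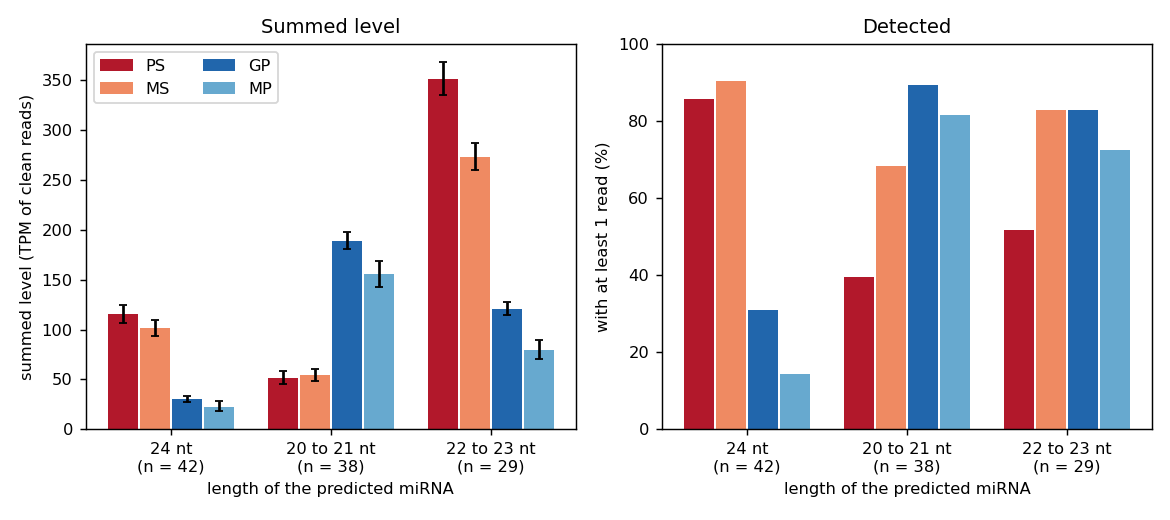
Summed level in TPM (left, bars with 95% Poisson intervals) and percent of miRNAs with at least 1 read (right) for predicted miRNAs of 3 length classes in PS, MS, GP and MP. The 24-nt class was detected for 85.7% in PS and 90.5% in MS, against 31.0% in GP and 14.3% in MP.

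The most abundant member was 53-3p, with 129 reads in PS, 245 in MS, 7 in GP and 7 in MP. It held 41.9% of the members' reads in MS and 21.5% in PS. Next in the silks was 37-3p, with 50 reads in PS, 48 in MS, 0 in GP and 0 in MP. Both silk libraries were far above both pollen libraries for the 2. The same pattern was seen for 38a-3p, with 53 reads in PS, 26 in MS, 1 in GP and 0 in MP, and for 25c-3p, with 47 in PS, 24 in MS and 0 in each pollen library. The 3p arm of hairpin 34 had 21 reads in PS, 31 in MS and 0 in each pollen library. The 5p arm of hairpin 4 had 30 reads in PS, 17 in MS, 3 in GP and 0 in MP. These 6 were above both pollen libraries in both silk libraries, but which silk library was higher differed among them.

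Pollen held a small set of its own. 46-3p had 5 reads in PS, 5 in MS, 104 in GP and 7 in MP. 41-5p had 0 reads in PS, 4 in MS, 83 in GP and 8 in MP. Both were high in GP only. 8-3p had 0 reads in PS, 3 in MS, 60 in GP and 37 in MP. 52-5p had 2 reads in PS, 4 in MS, 51 in GP and 22 in MP. Per clean read these 2 were high in both pollen libraries. Of the members' reads in GP, 46-3p held 32.7%, 41-5p 26.1%, 8-3p 18.9% and 52-5p 16%. In MP, 8-3p held 45.1% and 52-5p 26.8%.

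The other 18 members with at least 10 reads in all had 4 to 34 reads in PS and 2 to 28 in MS, and none had more than 1 read in a pollen library. The pollen reads were 1 read of 60-3p in GP, beside 11 in PS and 14 in MS, and 1 read of 5-5p in MP, beside 15 in PS and 10 in MS. The remaining 16 had 0 reads in both pollen libraries. 32-5p had 20 reads in PS and 10 in MS. 25a-3p had 16 reads in PS and 8 in MS. 58-3p had 14 reads in PS and 7 in MS. In these 3 the PS count was 2 times the MS count, a difference that did not pass the limits given below. 13-5p-1 had 8 reads in each silk library. 25c-5p-2 had 5 reads in PS and 6 in MS. The silk libraries were close for both. 45-3p had 5 reads in PS and 11 in MS. 24-5p had 4 reads in PS and 9 in MS. MS was above PS in these 2, and neither passed the limits. The 14 members under 10 reads had 2 to 9 reads over all libraries. 12 members had at most 3 reads in every library, so differences for these 12 were not detectable at this depth. Of the 14, 13-5p-2, with 6 reads in PS, 3 in MS and 0 in each pollen library, was called higher in PS against GP. With over 5 reads required in a library, 29 members remained, and the other 13 were at or under that minimum in all 4 libraries. The study's methods name the same minimum as a condition for accepting a predicted miRNA, and the deposited table also lists opposite arms of some hairpins.

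**Figure D3:**
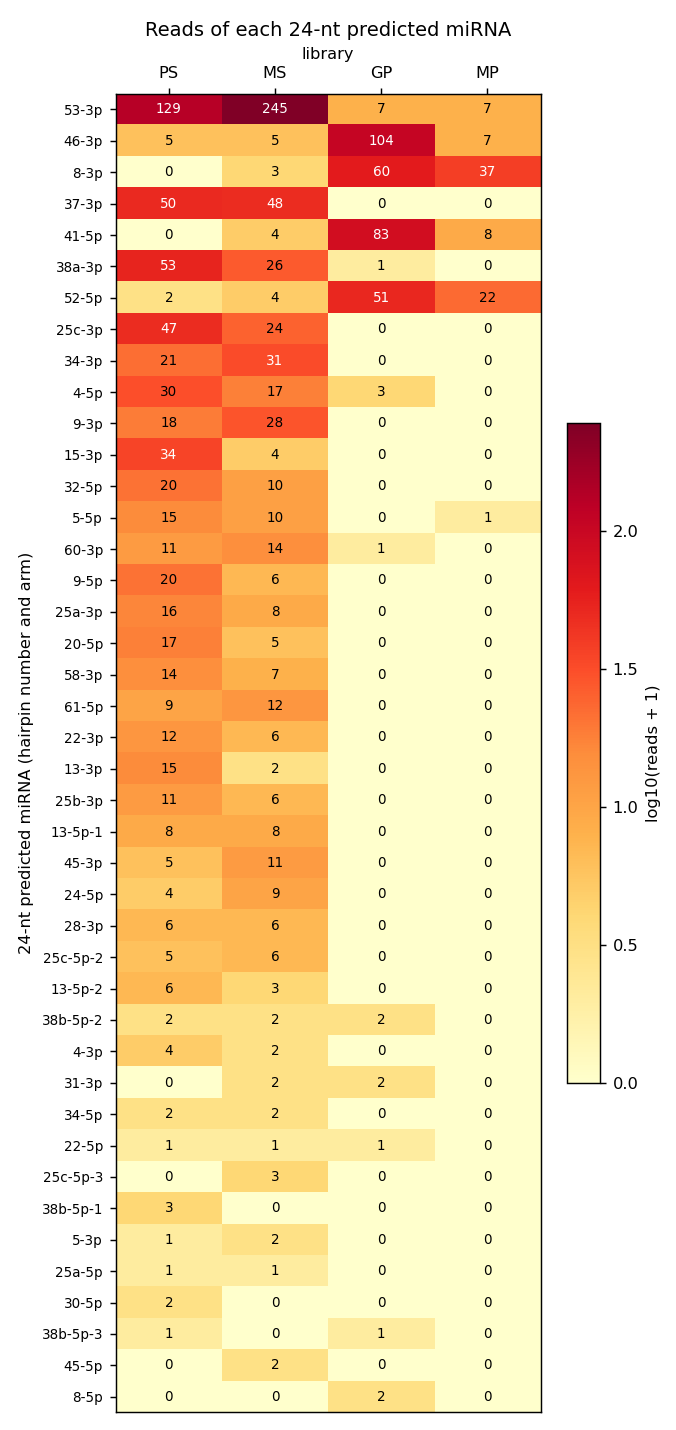
Reads of the 42 members (rows, by their total) in PS, MS, GP and MP (columns), with the number of reads in each cell and color by log10(reads + 1). Most rows are at 0 in GP and MP, and 46-3p, 8-3p, 41-5p and 52-5p stand out with 51 to 104 reads in GP.

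Pollination was examined as PS against MS, with a 2-sided Fisher's exact test on each entry of the table and Benjamini-Hochberg adjustment over all entries with reads in either library. With p under 0.01 in both cases, a call of higher in PS needed a log2 ratio above 1.5 with the PS count exceeding 10 times that of a pollen library, and a call of lower needed a log2 ratio below -2. Of 41 members tested, 4 were called higher and 0 lower, beside 9.76% of all entries called higher and 4.47% called lower. By the unadjusted exact test 9 of the 41 had p under 0.05, and the chi-square test gave 0 lower calls too. The share of members called higher was that of all entries, where several known names can hold the same sequence. Over distinct sequences 6.96% were called higher and 2.53% lower. Of the 51 shorter predicted miRNAs tested, 1 was called higher and 0 lower.

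Among the 4, 15-3p, which begins with the shared run, had 34 reads (6.53 TPM) in PS and 4 (0.693 TPM) in MS, with 0 in each pollen library. Its ratio was 9.43 (interval 3.36 to 36.6), or 3.24 on the log2 scale (Fisher's exact test, p = 7.47e-08, adjusted p = 2.63e-07). 13-3p had 15 reads in PS and 2 in MS, a ratio of 8.32 (1.94 to 75.0, Fisher's exact test, adjusted p = 0.00223). 9-5p had 20 reads in PS and 6 in MS, a ratio of 3.70 (1.43 to 11.3, Fisher's exact test, adjusted p = 0.00658). 20-5p had 17 reads in PS and 5 in MS, a ratio of 3.77 (1.34 to 13.1, Fisher's exact test, p = 0.00523), and its adjusted p of 0.0119 was over 0.01. The intervals are wide, because the MS counts were 2 to 6 reads. None of the 4 had a read in GP or MP. 15-3p, 13-3p and 20-5p had over 5 reads, the study's minimum for a predicted miRNA, in PS only. Entry through PS alone favors a call of higher in PS, and the p-values and intervals do not allow for this. With TMM scaling 2 of the 4 calls, 13-3p and 15-3p, remained, and with median-ratio scaling 7 members were called higher, these 4 among them.

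A further 3 members had p under 0.01 in the exact test without passing the limit on the ratio. 53-3p was lower in PS at a ratio of 0.584 (0.468 to 0.726, adjusted p = 1.81e-06). 38a-3p was higher at 2.26 (1.39 to 3.77, adjusted p = 0.00164), and 25c-3p at 2.17 (1.30 to 3.72, adjusted p = 0.00452). For 37-3p, the ratio was 1.16 (0.762 to 1.75), so a change of over 2-fold in either direction was outside its interval. The median log2 ratio was 0.73 over the 29 members with a ratio and 0.31 over all entries. By level, 26 members were higher in PS, 15 were lower and 1 was equal at 0 in both.

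**Figure D4:**
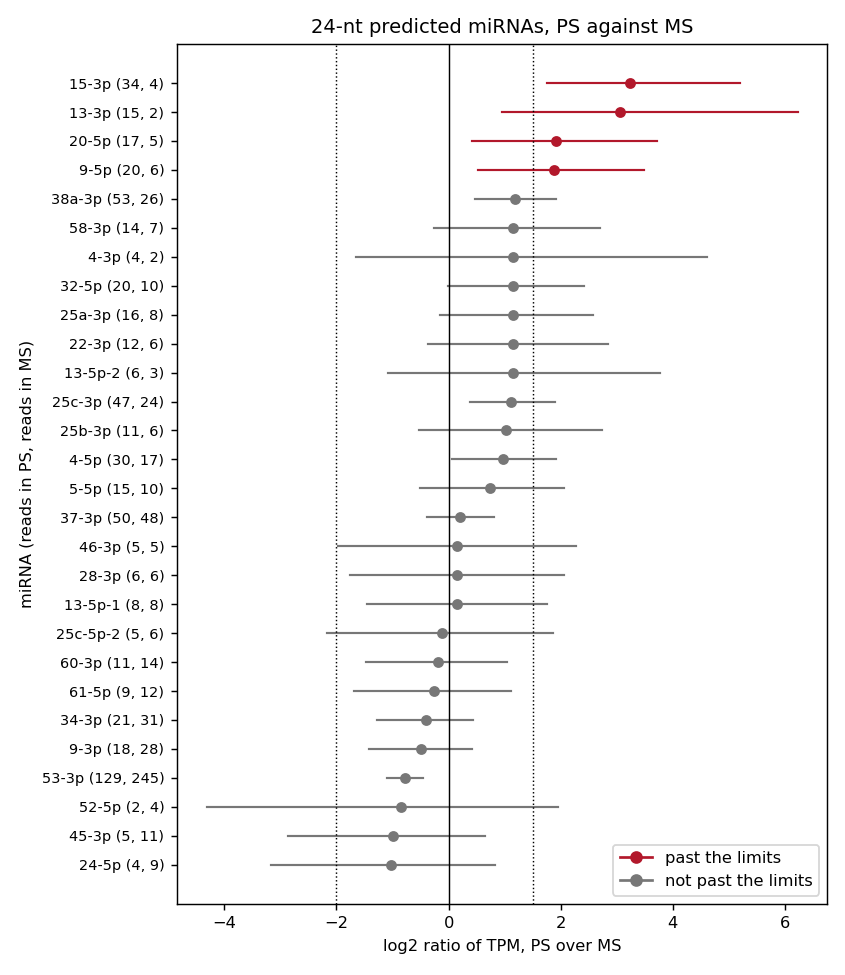
Log2 ratio of TPM, PS over MS, with exact 95% intervals for the 24-nt predicted miRNAs with reads in both silk libraries and over 3 in 1 of them (reads in PS and MS in brackets). Dotted lines mark the limits of 1.5 and -2, and the 4 points in red, from 15-3p (3.24) to 9-5p (1.89), passed the limits.

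The 12 members with the shared run summed to 160 reads (30.7 TPM) in PS, 85 (14.7 TPM) in MS, 2 (0.189 TPM) in GP and 1 (0.275 TPM) in MP. The ratio of PS to MS was 2.09 (interval 1.60 to 2.75). For the 30 members without the run, with 440 reads in PS and 500 in MS, it was 0.976 (0.857 to 1.11). This value rested on 53-3p, and the other 29 members without the run, with 311 reads in PS and 255 in MS, were at 1.35 (1.14 to 1.60). Without 15-3p the ratio of the run's members was 1.73 (1.30 to 2.31). It was 2.50 (1.83 to 3.46) without 25b-3p, 25c-5p-2 and 60-3p, which overlap a retained member at an offset of 1 to 2 nt. Of these, 60-3p had 11 reads in PS and 14 in MS, so this value depends on which overlapping member is left out. Within the libraries, the run's members held 26.7% of the members' reads in PS (23.2 to 30.4), 14.5% in MS (11.8 to 17.6), 0.629% in GP and 1.22% in MP.

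Pollen carried into PS was looked at through 19 entries abundant in pollen, which had at least 10 reads and 5 TPM in GP and at least 5 times their MS level. They summed to 6.53 TPM in PS, 20.3 TPM in MS, 564 TPM in GP and 251 TPM in MP. Of the 19, 13 had 0 reads in PS, 2 had 0 in MS, 15 were lower in PS than in MS and 2 were higher. 3 were 24-nt members, 41-5p, 46-3p and 8-3p. PS thus held less of these entries per clean read than MS. Their part in the comparison of the silks was not tested.

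During pollen germination, GP against MP, the limits were 0.01 for p and 1.5 for the size of the log2 ratio. Of 14 members tested, 2 were higher in GP and 0 lower, beside 8.99% of all entries called higher and 17.5% called lower. Over distinct sequences 12.2% were called higher and 8.94% lower. 3 of the 14 had p under 0.05 in the unadjusted exact test, and the chi-square test gave 0 lower calls too. 46-3p, at 9.83 TPM in GP and 1.92 TPM in MP, was 5.11 times higher (2.40 to 13, Fisher's exact test, adjusted p = 1.18e-06). 41-5p, at 7.85 TPM in GP and 2.20 TPM in MP, was 3.57 times higher (1.73 to 8.54, Fisher's exact test, adjusted p = 0.00033), with the name of this row uncertain as given above. Without it 46-3p was the 1 call. 8-3p was at 0.558 of its MP level (0.364 to 0.865, exact test, p = 0.00705, adjusted p = 0.0165), within the limit on the ratio. With TMM scaling 46-3p alone was called. For 52-5p the ratio was 0.798 (0.475 to 1.38). At these depths a member absent from MP needed 25 reads in GP to be called, and 8 of the 14 had fewer than 4 in GP and none in MP.

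In MS against MP, at the same limits, 8 members were higher in MS and 2 lower of 38 tested, beside 44.4% of all entries called higher and 9.27% called lower. Among distinct sequences, 29.01% were called higher and 13.58% lower. The 8 members higher in MS were 25c-3p, 34-3p, 37-3p, 38a-3p, 4-5p, 53-3p, 60-3p and 9-3p. 53-3p was 22.1 times higher in MS (10.5 to 55.4, Fisher's exact test, adjusted p = 1.03e-41). 37-3p, at 0 reads in MP, was 10.1 times higher with the 0 set to 3 reads, the exact interval beginning at 7.89. 8-3p was at 0.0511 of its MP level in MS (0.0101 to 0.161, adjusted p of Fisher's exact test 3.6e-12) and 52-5p at 0.115 (0.0287 to 0.337). A member absent from MP needed 14 reads in MS to pass, which limits the count. The median log2 ratio was 0.75 over the members, with counts of 0 set to 3 reads, 2.41 over all entries and 0.89 over distinct sequences. Of the 64 shorter predicted miRNAs tested, 7 were higher and 19 lower in MS.

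In PS against GP, 24 members were higher in PS and 4 lower of 40 tested, beside 55.8% of all entries called higher and 13.8% called lower. Over distinct sequences 42.5% were called higher and 20.1% lower. All 8 members higher in MS against MP were among the 24 (8 of 8, and 8 of 24), and 52-5p and 8-3p among the 4, which also held 41-5p and 46-3p. In the deep GP library 5 reads in PS were enough against 0. With 0 reads in GP set to 3, 37-3p was 33.9 times higher in PS (exact interval from 26.5), 25c-3p 31.8 times (from 24.9) and 15-3p 23 times (from 17.7). 53-3p was 37.4 times higher (17.7 to 95). 41-5p, at 0 reads in PS, was 13.6 times lower with that 0 also set to 3 reads (interval of the ratio up to 0.0923). 46-3p was at 0.0977 of its GP level (0.0311 to 0.235). The median log2 ratio was 3.29 over the members, 3.13 over all entries and 2.02 over distinct sequences. Of the 65 shorter predicted miRNAs tested, 9 were higher and 29 lower in PS. All these calls are per clean read. Members that met the study's minimum of over 5 reads only in silk libraries favor calls of higher in silk. Scaled by TMM, 4 members were higher in PS than in GP and 4 lower, and 0 were higher in MS than in MP and 4 lower.

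Both arms were measured in 18 hairpins with a 24-nt arm. In 9 of them both arms had 24 nt, in 8 the other arm had 21 or 22 nt, and in hairpin 25c the 5p arm was listed at 23 and 24 nt. The arm with more reads had over 5 times the reads of the other in 11 hairpins and was within 2 times in 2, with a median ratio of 5.75, and it was the 5p arm in 8. Over the 4 libraries together, 36.7% of the reads were from the 5p arm (interval 34.2 to 39.4). In the silk libraries it was 31.1% (28.2 to 34.2) and in the pollen libraries 49.6% (44.7 to 54.6). This difference rested on hairpin 53, without which the share was 43.5% in the silk libraries (39.0 to 48.0), 45.7% in the pollen libraries (40.4 to 51.0) and 44.4% over all 4.

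The 8 hairpins with arms of different length were looked at for the libraries in which each arm was found. Over these 8 the 24-nt arm held 171 of 206 reads in PS (83%, 77.2 to 87.9) and 276 of 334 in MS (82.6%, 78.1 to 86.5). It held 63 of 234 in GP (26.9%, 21.4 to 33.1) and 29 of 75 in MP (38.7%, 27.6 to 50.6). The pollen shares rested on hairpin 52, without which the 24-nt arm held 12 of 152 reads in GP (7.89%) and 7 of 50 in MP (14%). The silk reads were mostly those of hairpin 53, without which it held 42 of 47 in PS (89.4%), 31 of 38 in MS (81.6%), 56 of 191 in GP (29.3%) and 22 of 62 in MP (35.5%). Hairpin 28 was the clearest. Its 24-nt 3p arm had 6 reads in PS, 6 in MS, 0 in GP and 0 in MP. Its 21-nt 5p arm, gAUCCCGGgagaaucggaggg, shown with its seed in capitals, had 0 reads in PS, 0 in MS, 45 in GP and 8 in MP. The arms did not occur together in any library. Hairpin 53 showed both arms everywhere: the 22-nt 5p arm had 30 reads in PS, 51 in MS, 36 in GP and 6 in MP, against the 24-nt arm given above. The 5p arm held 18.9% of its reads in PS (13.1 to 25.8) and 83.7% in GP (69.3 to 93.2, Fisher's exact test, adjusted p = 4.59e-13 over 98 tests of arms), and 65.9% of the reads of the 5p arm were from the silk libraries.

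The arms of hairpins 20 and 61 were sorted in the same way, and those of hairpin 38b, which occurred together in GP, only in part. The 24-nt arm of hairpin 20 had 17 reads in PS and 5 in MS, and its 21-nt arm 3 in GP and 1 in MP, with 0 elsewhere for both. The 24-nt arm of hairpin 61 had 9 reads in PS and 12 in MS, and its 21-nt arm 4 in GP, again with 0 elsewhere. In hairpins 20 and 61 only the 24-nt arm met the study's minimum of over 5 reads, and only in silk libraries. Such entry favors this split. The 24-nt arms of hairpin 38b had 6 reads in PS, 2 in MS, 3 in GP and 0 in MP, and its 21-nt arm 0 in PS, 0 in MS, 8 in GP and 16 in MP. The 24-nt arm of hairpin 30 had 2 reads in PS and 0 elsewhere, and its 22-nt arm 0 in PS, 2 in MS, 21 in GP and 8 in MP. In hairpins 38b and 30 the shorter arm was the only entry that met the minimum, and only in pollen libraries, which favors the split too. Hairpins 52 and 31 were not sorted so. Both arms of hairpin 52 were mostly in pollen, with 1, 4, 31 and 3 reads of the 21-nt arm in PS, MS, GP and MP. The 24-nt arm of hairpin 31 had 0 reads in PS, 2 in MS, 2 in GP and 0 in MP, and its 22-nt arm 4 in PS, 1 in MS, 23 in GP and 4 in MP. The related hairpins 38a and 38b gave the same contrast across loci. 38a-3p, of 24 nt and 79 silk reads, shares a run of 15 nt with the 21-nt 38b-3p, which had 24 reads in pollen and 0 in silks. Such a split was not particular to hairpins with a 24-nt arm. In hairpin 50 both arms have 21 nt. Its 5p arm had 6 reads in PS, 10 in MS, 5 in GP and 0 in MP, and its 3p arm 0, 0, 168 and 28.

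**Figure D5:**
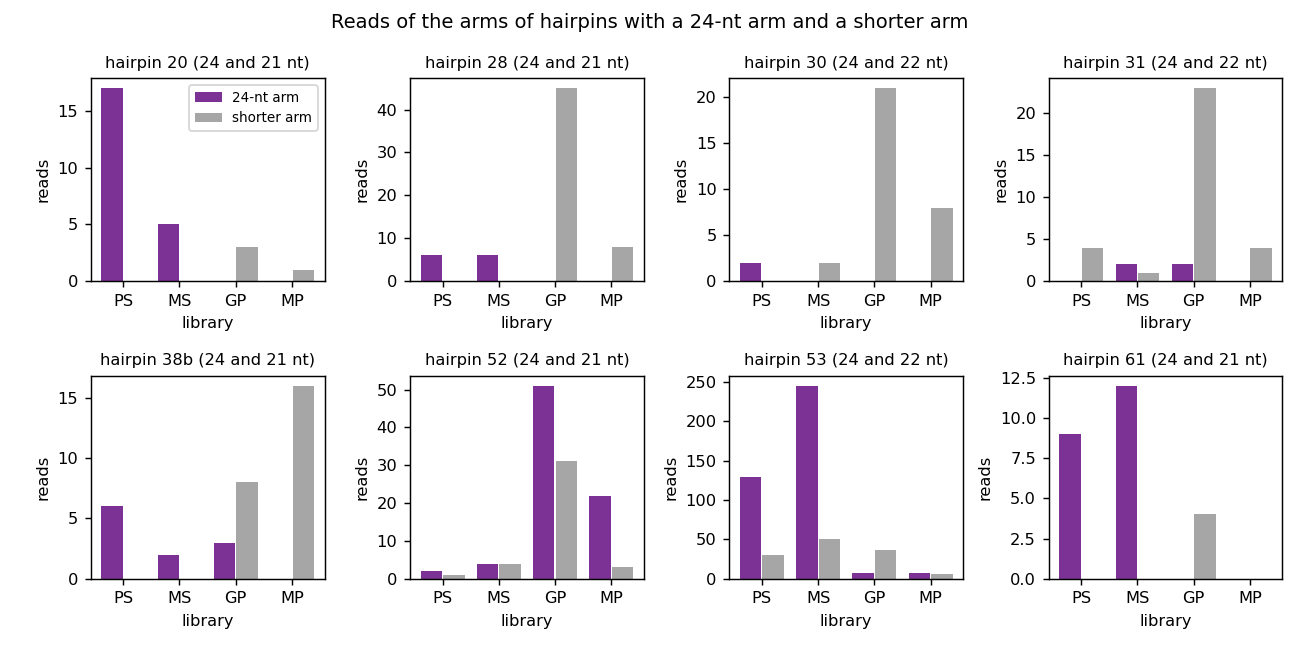
Reads of the 24-nt arm (purple) and the shorter arm (grey) of 8 hairpins in PS, MS, GP and MP, with a separate scale for each hairpin. In hairpins 20, 28 and 61 the 24-nt arm has reads in silk libraries only and the shorter arm in pollen libraries only, and in hairpin 52 both arms are mostly in GP and MP.

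Among the hairpins with 24-nt arms on both sides, hairpin 9 differed in its arm ratio between the silks. 9-5p had 20 reads in PS and 6 in MS, and 9-3p had 18 in PS and 28 in MS. The 5p share was 52.6% in PS (35.8 to 69.0) and 17.6% in MS (6.76 to 34.5, Fisher's exact test, adjusted p = 0.0291). For hairpin 13, the 5p share was 48.3% in PS and 84.6% in MS, with an adjusted p of 0.171 in the exact test. For hairpin 4, it was 88.2% in PS and 89.5% in MS.

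Arms of a hairpin cut by a Dicer-like enzyme pair with 2 nt left over at each 3′ end. The members' arms were laid against each other without gaps, G-U pairs allowed, for 23 pairs of arms from 1 locus. They paired at 17 to 24 positions. Hairpin 9 was the only one of the 23 with 2 nt over at both 3′ ends, with 21 of 22 facing positions paired. Without gaps, only arms of equal length can show this. Such arms made up 12 of the pairs, all of 24 and 24 nt, so the count was 1 of 12. 13-5p-1 and 13-3p paired at all 24 positions with no base over. Arms with bulges are not placed exactly by a comparison without gaps.

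The deposited table lists predicted target sites for 1 of the 42 members, against 21 of the 38 predicted miRNAs of 20 to 21 nt, 7 of the 29 of 22 to 23 nt and 157 of the 161 known names. The study's rule names the same limit on mismatches for every length, which asks more of a longer sequence. The part of this rule in these shares was not tested. The 1 member was 38b-5p-2, aGACCAAUccagagggggauugga, seed in capitals, with 2 reads in PS, 2 in MS, 2 in GP and 0 in MP. Its site lies at positions 1238 to 1261 of the transcript GRMZM2G395535_T01, of a gene that the study annotates as a glutaredoxin, a family of small proteins that reduce disulfides with glutathione. The targets come from sequence, and no transcript was measured in these libraries. Of the shorter arms opposite 24-nt members, 4 had targets: 20-3p in 2 genes, 28-5p in 3, 52-3p in 1 and 61-3p in 8. Thus in hairpins 20, 28 and 61, the arm with target sites was the one detected in pollen.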

How the data were processed

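Small RNA of 4 tissues of maize B73 was sequenced by the authors, 1 library per tissue. They mapped clean reads of 18 to 30 nt to the B73 RefGen_2v genome (release 5a.59) with SOAP, took known miRNAs from miRBase 18.0, and predicted others with Einverted, RNAfold and MirCheck. The deposited counts are whole reads per miRNA, to which the authors added variants of up to 2 bp in length. The deposited TPM values are counts the authors scaled to clean reads, without length. Deposited p-values, from chi-square tests by the authors on pairs of libraries, were not used. No per-sample column was set aside (0 unused). Genome positions were not analysed here.

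Members were the predicted entries of 24 nt. Members and lists were chosen with earlier results of these data known. Named members had at least 10 reads in all, passed the limits, had targets or came from hairpins with both arms measured. The members printed by sequence had at least 10 reads or the shared run, and 28-5p and 38b-5p-2 were added for their arms or target. Counts were tested with a 2-sided Fisher's exact test against all other clean reads, with Benjamini-Hochberg adjustment (SciPy 1.17.1, statsmodels 0.14.6, Python 3.11.15), over all entries for levels and over 98 tests in 36 hairpins for arms. The limits for GP against MP and the limits on ratio and count for PS against MS were the study's, whose test was chi-square. The limit on p in the silks and the use of the pollen limits in MS against MP and PS against GP were set here. A count of 0 was set to 3 reads for ratios unless the other was also at most 3, when none was computed. Intervals are exact (Poisson or Clopper-Pearson). edgeR 4.0.16 and DESeq2 1.42.0 gave TMM and median-ratio factors over distinct known sequences for alternatives, and fitted no test, for want of replicates. The scripts were tested on simulated data. Gene names were looked up in RefSeq's table for Zm-B73-REFERENCE-NAM-5.0, where 7 of 15 target genes of members and opposite arms had an entry. Alternatives covered scaling, test, limits, read minimum, overlapping members and depth.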

Additional observations from a re-analysis of the deposited data

Results flagged for a closer look

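In hairpins with a 24-nt arm, the share of reads from the 5p arm differed between 2 libraries in 8 of 44 comparisons, by Fisher's exact test with adjustment over 98 tests of arms. Hairpins with no 24-nt arm differed in 0 of 11 comparisons for PS against MS and 2 of 17 for GP against MP. For MS against MP the number was 1 of 15 and for PS against GP 2 of 11. Hairpin 50, with 21 nt on both arms, differed between PS (100%) and GP (2.89%) at an adjusted p of 3.6e-07 in the exact test. Each comparison is between single libraries. Hairpin 53 differed between PS (18.9%) and GP (83.7%) at an adjusted p of 4.59e-13 in the exact test. Hairpin 28 differed between PS (0 of 6 reads) and GP (45 of 45) at an adjusted p of 1.36e-06, and between MS (0 of 6) and MP (8 of 8) at 0.00653, in the exact test. Hairpin 20 differed between PS (17 of 17) and GP (0 of 3) at 0.0107, hairpin 61 between PS (9 of 9) and GP (0 of 4) at 0.0152, and hairpin 30 between PS (2 of 2) and GP (0 of 21) at 0.0323, all as adjusted p of the exact test. Hairpin 38b differed between MS (2 of 2) and MP (0 of 16) at an adjusted p of 0.0493, and between PS (6 of 6) and GP (3 of 11) the adjusted p of the exact test was 0.0633. Hairpin 9 differed between PS (20 of 38) and MS (6 of 34) at an adjusted p of 0.0291 in the exact test. Several of these rest on 2 to 6 reads in a library. In hairpins 20 and 61 only the 24-nt arm met the study's minimum of over 5 reads, and only in silk libraries. In hairpins 30 and 38b only the shorter arm did, and only in pollen libraries. Such entry favors a difference between silks and pollen, and the p-values do not allow for it.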

How the results depend on the processing

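No paired analysis was possible because each tissue had 1 library. The calls depended on scaling. With TMM, 2 members passed in PS against MS, 1 in GP against MP, 4 in MS against MP (0 higher, 4 lower) and 8 in PS against GP (4 higher, 4 lower), and with median-ratio factors 7, 2, 4 and 8 in the same order. Scaled to known reads, 5 passed in MS against MP and 8 in PS against GP. The summed ratio of members was then 0.959 (TMM) and 1.55 (median ratio) in PS against MS. In GP against MP it was 0.946, 2.13 and, per known read, 1.75. In MS against MP it was 0.438, 0.494 and 0.761, and in PS against GP 0.444, 0.359 and 0.444, for TMM, median ratio and known reads. These scalings moved log2 ratios by -3.36 (TMM) in MS against MP and -3.11 in PS against GP. Of 391 single ratios under alternatives, 303 kept their call and 88 lost it, 45 of these as bounds against 0 reads that fell past 0 and so gave no direction. The summed level without the member with the most reads was 90.5 TPM in PS and 58.9 in MS, and with 1 entry per overlap 103 and 92.6. With over 5 reads required, 22 members were detected in PS, 21 in MS and 5 in GP, with at least 3 reads 6 in GP, and 8 in GP among members over 5 reads in a library. Thinned to the depth of MP, 34.4, 36.1, 8.75 and 6 members would be detected in PS, MS, GP and MP. The 5p share was 31.1% in silks and 49.6% in pollen, and without hairpin 53 43.5%, 45.7% and, over 4 libraries, 44.4%. Leaving out 1 member at a time, the summed ratio ran between 1.08 and 1.54 in PS against MS, 0.982 and 1.97 in GP against MP, 2.86 and 8.15 in MS against MP, and 3.08 and 5.65 in PS against GP. The chi-square test, adjusted p, a log2 limit of 1, at least 10 reads, 1 entry per overlap, 1 read added and the pollen criterion left the counts within 1.5 times. Results without 1 named member or hairpin, the ratio of the run's members with overlapping members left out, and the scalings of summed ratios were chosen after seeing the data.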
